A study of Homo sapiens with 4 samples.

Results

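To determine how a prostate cancer line with acquired resistance to enzalutamide (ENZ) differed from the parental line when both were in the drug, the RES-A library was compared with the LNCaP-ENZ48 library by droplet single-cell RNA-seq (scRNA-seq). LNCaP is an androgen-dependent line that grew from a lymph node metastasis of prostate adenocarcinoma. LNCaP-ENZ48 held LNCaP cells given 10 µM ENZ for 48 h, and RES-A held cells of a LNCaP derivative that had been passaged for months in rising ENZ doses and was kept in 10 µM ENZ. The other 2 libraries of the series were untreated LNCaP, given 0.1% DMSO for 48 h, and RES-B, a LNCaP derivative selected in RD-162, a close analogue of ENZ, and kept in 10 µM ENZ, and their levels are given beside the main pair. All cultures were grown in medium with serum, and living cells were sorted before capture. Cells were kept if they had at least 1500 genes, at least 5000 unique molecular identifiers (UMIs, counts of captured RNA molecules) and under 20% of UMIs from mitochondrially encoded genes, which left 9194 cells in the pair (4629 of RES-A and 4565 of LNCaP-ENZ48) of 15452 kept cells in the series. Each group was 1 library of 1 line, so no difference between the lines has a replicate check, and no p-value is given. Resistance, length of exposure, months of separate culture and library handling cannot be told apart in this pair.

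Androgen signaling drives the secretory program of luminal prostate cells, including the kallikrein proteases, and also sustains growth of most prostate cancers. ENZ and RD-162 are antiandrogens, which block this signal and so lower the transcription of androgen-induced genes within hours. Tumors that progress on such drugs are known to regain the androgen program, to bypass it through other growth pathways, or to lose luminal identity and at times take on neuroendocrine traits.

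The kept cells of RES-A carried 58657527 UMIs (medians per cell of 12164 UMIs and 3179 genes), and those of LNCaP-ENZ48 carried 68158371 UMIs (medians of 13968 and 3280). The median mitochondrial share was 10.4% and 9.38%. LNCaP was sequenced more deeply per cell (median 26502 UMIs over 2019 cells) and RES-B about as deeply as RES-A (median 12480 over 4239 cells), so levels are given as CPM, the UMIs of a gene when each library is scaled to 1000000 UMIs. Cell barcodes were shared by 3 cells between RES-A and LNCaP-ENZ48, and by 2 to 10 over all pairs of libraries. Of the 13 luminal prostate markers, 12 reached a mean of 10 CPM over the pair, and their summed level was 2108 CPM in LNCaP-ENZ48 and 1964 CPM in RES-A, with KRT8, KRT18, EPCAM and CDH1 present in both. Of these 12, 4 were at least 2-fold lower in RES-A, KLK3, KLK2, TMPRSS2 and FOLH1, and 0 were higher (median log2 ratio -0.24). Markers of blood cells summed to 0.440 and 1.31 CPM, those of endothelium to 0.587 and 1.04 CPM, those of red cells to 0.0440 and 0.0511 CPM and those of fibroblasts to 5.50 and 4.84 CPM. PTPRC, CD3D, CD3E, MS4A1, COL1A2, FAP, CDH5, TEK, CLDN5, and the basal cell genes TP63 and KRT5, had 0 UMIs in both libraries.

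UMIs were summed per gene and library, and 22330 genes had a UMI in either library. The 7310 genes whose mean over the pair reached 10 CPM were compared, and a gene is counted as higher or lower where its CPM differed at least 2-fold, a log2 ratio of RES-A over LNCaP-ENZ48 of at least 1 or at most -1. By this measure 307 genes were higher in RES-A (4.2% of those compared) and 246 were lower (3.37%), of which 15 and 20 were long noncoding RNAs. The bulk of the transcriptome lay close together: 77.4% of the genes compared were within 1.5-fold, and the median log2 ratio was 0.11, with quartiles of -0.19 and 0.41. At 4-fold the counts were 62 higher and 63 lower, and at 32-fold they were 8 higher and 21 lower. Higher genes made up 55.5% of all 2-fold differences with totals of all UMIs as the scale, but 39.5% with TMM factors (216 higher, 331 lower) and 38.0% with median-of-ratios size factors (208 higher, 340 lower), since those scales moved every log2 ratio by -0.16 and -0.17. The medians of gene lists below are therefore read against the 0.11 of all genes, and genes near 2-fold are named with their value on the other scales. Counts of list members past 2-fold are read beside the 4.2% higher and 3.37% lower of all genes. Intervals are exact 95% intervals for counting error, which do not cover differences between cultures.

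**Figure D1:**
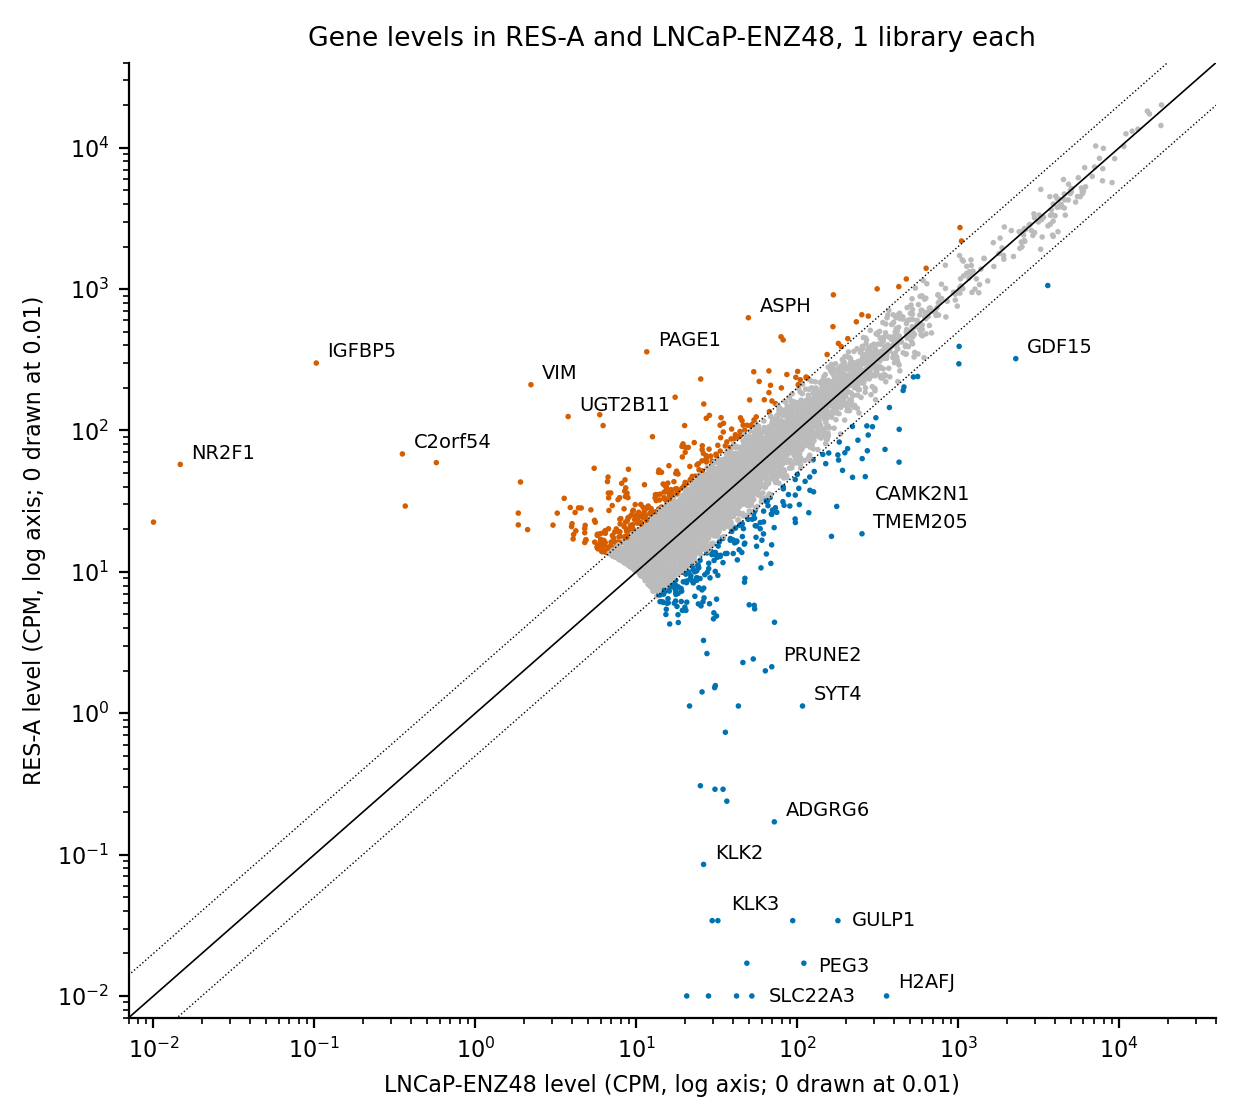
Levels of the 7310 genes compared in LNCaP-ENZ48 (x axis) and RES-A (y axis), both in CPM on log axes, 1 point per gene, with a solid line at equal levels, dotted lines at 2-fold and counts of 0 drawn at the low end of the axis. Orange points are at least 2-fold higher in RES-A, blue points at least 2-fold lower and grey points lie between; KLK3, PEG3 and H2AFJ sit along the bottom, and IGFBP5 and NR2F1 at the far left.

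The prostate kallikreins, secreted serine proteases induced by androgen, were lower in RES-A than in acutely treated cells: KLK3, KLK2 and KLK4, the 3 of 4 listed members that passed 10 CPM, differed by over 32-fold each, and their median log2 ratio was -8.26. KLK3, which encodes prostate-specific antigen (chr19:50854915-50860764, GENCODE 44 on GRCh38), stood at 0.0341 CPM in RES-A against 93.8 in LNCaP-ENZ48, with 30.4 in RES-B and 733 in untreated LNCaP, and RES-A held 2 UMIs in all. KLK2, its neighbor and an activator of the KLK3 protein (chr19:50861568-50880567), stood at 0.0852 CPM in RES-A against 26.2 in LNCaP-ENZ48, with 23.2 in RES-B and 321 in untreated LNCaP. KLK4 (chr19:50906351-50911395) stood at 0.290 CPM in RES-A against 34.6 in LNCaP-ENZ48, with 64.9 in RES-B and 146 in untreated LNCaP. In each case LNCaP was the highest library and RES-A by far the lowest, with LNCaP-ENZ48 and RES-B between them. The log2 ratios of RES-A over LNCaP-ENZ48 were -11.43 for KLK3 (95% interval -14.47 to -9.57), -8.26 for KLK2 (-9.89 to -7.04) and -6.90 for KLK4 (-7.68 to -6.22). Over the 50 compared genes nearest to KLK3 the median log2 ratio, relative to all protein-coding genes, was -0.07, so the neighborhood as a whole was not lower to that degree.

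The promoters of KLK3 and KLK2 are shown because both genes were near silent in RES-A and are the standard readouts of the androgen response. The windows run from 250 bases before to 50 bases after the RefSeq start and are printed 5′ to 3′ in the direction of the gene. Capitals mark the half-site of the androgen response element that was searched on both strands (AGAACA or TGTTCT), which 14.8% of 35116 RefSeq promoters of the same length hold.
KLK3 (GRCh38.p14, chr19:50854665-50854964, plus strand): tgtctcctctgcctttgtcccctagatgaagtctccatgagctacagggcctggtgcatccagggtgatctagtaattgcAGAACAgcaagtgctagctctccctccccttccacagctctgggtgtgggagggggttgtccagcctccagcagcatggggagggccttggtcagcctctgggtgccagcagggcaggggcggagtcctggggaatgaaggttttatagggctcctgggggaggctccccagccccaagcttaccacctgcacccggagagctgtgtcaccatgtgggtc
KLK2 (GRCh38.p14, chr19:50873189-50873488, plus strand): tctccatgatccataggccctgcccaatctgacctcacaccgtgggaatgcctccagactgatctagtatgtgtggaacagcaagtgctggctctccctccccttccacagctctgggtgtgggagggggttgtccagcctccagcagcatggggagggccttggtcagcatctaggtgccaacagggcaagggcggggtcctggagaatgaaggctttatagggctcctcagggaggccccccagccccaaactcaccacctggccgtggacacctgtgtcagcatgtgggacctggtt
The KLK3 window held 1 half-site, at position -170 from the start, and the KLK2 window held none by these letters. In the matching stretch KLK2 reads ggaaca, 1 letter away, so the exact search does not show that KLK2 lacks such an element. The letters describe the windows and say nothing of binding in these cells.

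Androgen-induced genes, the kallikreins included, did not move as a block. Of 66 androgen-induced genes listed, 43 passed 10 CPM, of which 1 (2.33%) was higher and 10 (23.3%) were lower in RES-A, beside 4.2% and 3.37% of all genes, with KLK3, KLK2 and KLK4 among the lower ones and a median log2 ratio of -0.16 against 0.11 over all genes. C1orf116, an androgen-induced gene, was the member that was higher, at 18.8 CPM in RES-A against 6.43 in LNCaP-ENZ48, with 21.1 in RES-B and 23.8 in untreated LNCaP (log2 ratio 1.55, 95% interval 1.38 to 1.71). ABCC4, an efflux transporter of cyclic nucleotides and prostaglandins, was among the lower members, at 3.27 CPM in RES-A against 26.2 in LNCaP-ENZ48, with 5.03 in RES-B and 44.8 in untreated LNCaP (log2 ratio -3.0, 95% interval -3.22 to -2.78), and its 50 neighbors on chromosome 13 were at -0.38 relative to all genes. HOMER2, a scaffold protein, went from 30.3 CPM in LNCaP-ENZ48 to 5.13 in RES-A (log2 ratio -2.56), in a neighborhood of chromosome 15 at -0.57. TMPRSS2, the serine protease whose androgen-driven promoter is fused to ERG in many prostate tumors, stood at 7.45 CPM in RES-A against 25.6 in LNCaP-ENZ48, with 19.2 in RES-B and 107 in untreated LNCaP (log2 ratio -1.78, 95% interval -1.94 to -1.63), and the 50 genes around it on chromosome 21 were at 0.51, the opposite direction. FKBP5, a cochaperone of steroid receptors induced by androgen, stood at 17.9 CPM in RES-A against 10.8 in LNCaP-ENZ48, with 15.6 in RES-B and 19.7 in untreated LNCaP and was above acute treatment in RES-A (log2 ratio 0.72, 95% interval 0.59 to 0.86).

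**Figure D2:**
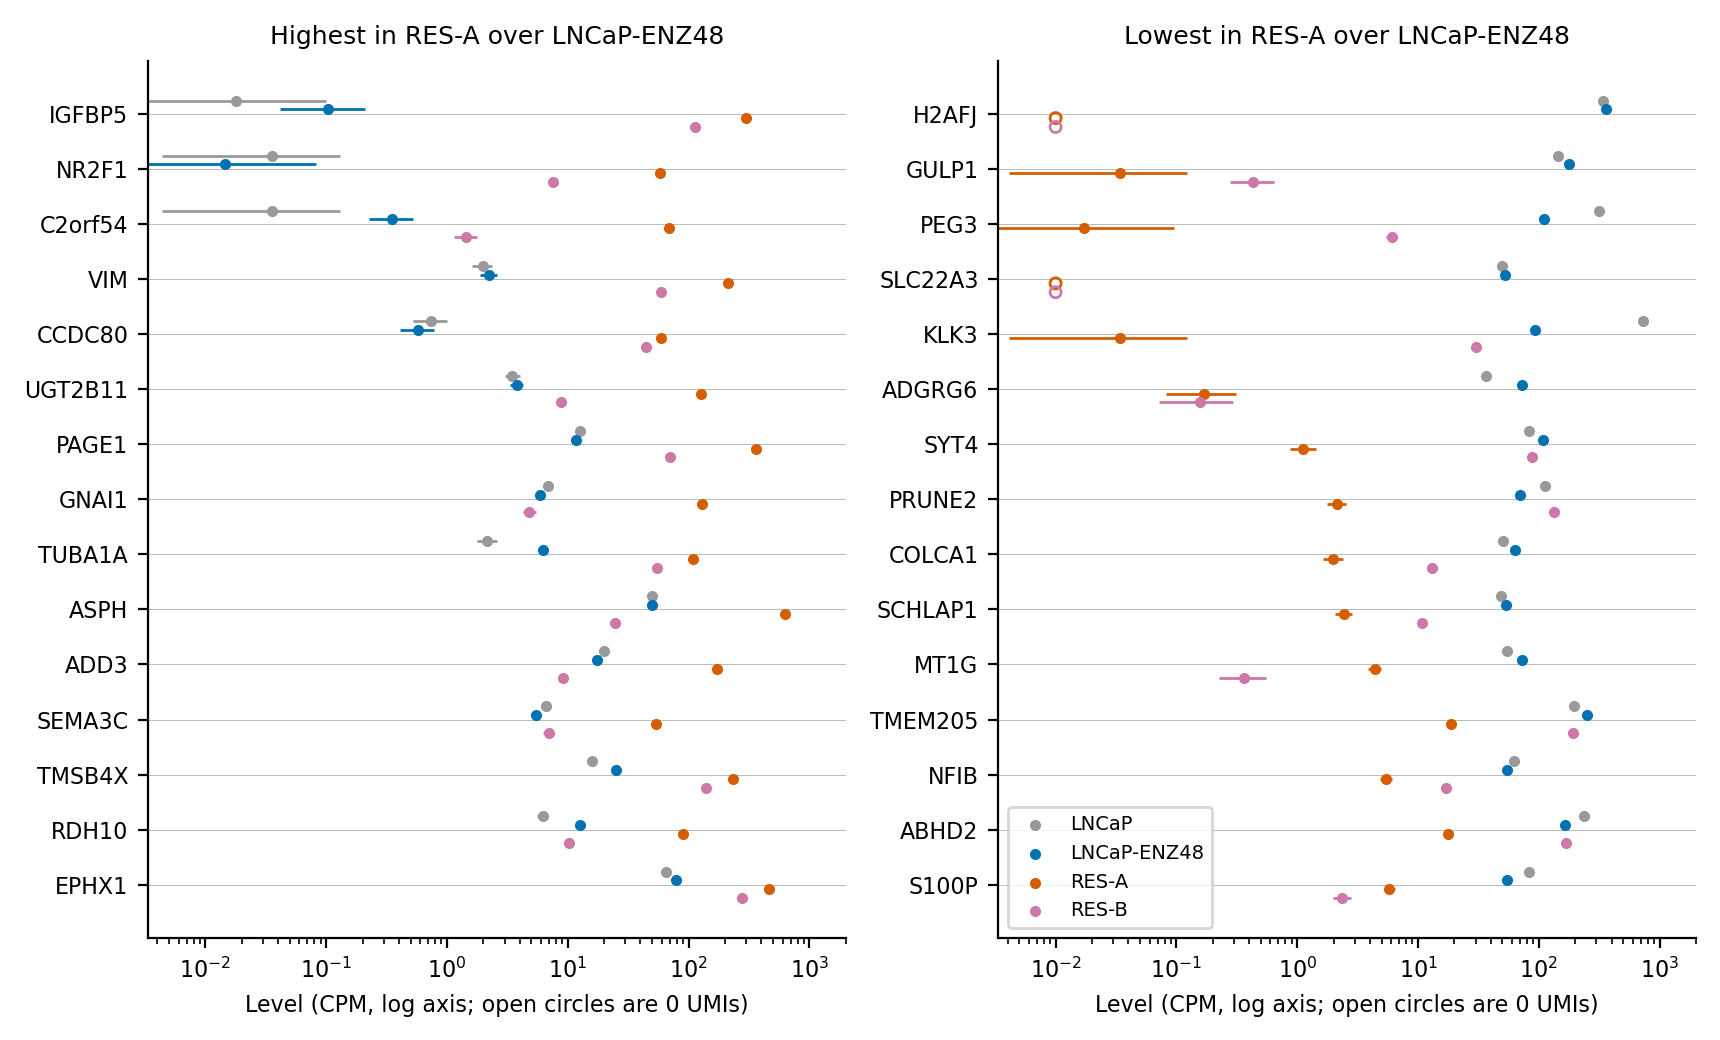
Levels of the 15 named genes of highest and the 15 of lowest ratio, in 1 panel each, in CPM on a log axis, with 1 point per library and its exact Poisson 95% interval; open circles at the low end of the axis are counts of 0 UMIs. KLK3 is highest in untreated LNCaP and lowest in RES-A with RES-B between, and IGFBP5 and VIM are low in both parental libraries and high in both resistant ones.

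Genes that androgen represses, which acute androgen blockade is known to release, were split in RES-A. Of 12 measured, 3 (25%) were higher and 4 (33.3%) lower, beside 4.2% and 3.37% of all genes, and the median was -0.31. The higher members were UDP-glucuronosyltransferases, an enzyme family of which some members conjugate androgens for excretion. UGT2B11 stood at 126 CPM in RES-A against 3.77 in LNCaP-ENZ48, with 8.75 in RES-B and 3.48 in untreated LNCaP (log2 ratio 5.06, 95% interval 4.88 to 5.24). UGT2B15 stood at 123 CPM in RES-A against 33.6 in LNCaP-ENZ48, with 25.2 in RES-B and 10.6 in untreated LNCaP (log2 ratio 1.87), and UGT2B10 at 29.2 CPM in RES-A against 0.367 in LNCaP-ENZ48, with 1.58 in RES-B and 0.341 in untreated LNCaP (6.32). RES-A was the highest of the 4 libraries for each of these 3 genes. They are related gene copies on chromosome 4, so the division of reads between them is uncertain. The lower members were SYT4, a synaptotagmin of secretory vesicles, PRUNE2, a regulator of RhoA, CAMK2N1, an inhibitor of the kinase CaMKII, and MAOA, a monoamine oxidase that was named after its values were seen (log2 ratio -1.78). SYT4 stood at 1.13 CPM in RES-A against 108 in LNCaP-ENZ48, with 88.3 in RES-B and 83.0 in untreated LNCaP (log2 ratio -6.58, 95% interval -6.96 to -6.23). PRUNE2 stood at 2.13 CPM in RES-A against 69.5 in LNCaP-ENZ48, with 134 in RES-B and 113 in untreated LNCaP (log2 ratio -5.03, 95% interval -5.30 to -4.77). CAMK2N1 stood at 46.6 CPM in RES-A against 221 in LNCaP-ENZ48, with 689 in RES-B and 65.3 in untreated LNCaP (log2 ratio -2.24, 95% interval -2.30 to -2.18). SYT4, PRUNE2 and CAMK2N1 were lowest in RES-A and at or above the LNCaP level in RES-B, and the neighborhoods of SYT4 on chromosome 18 and PRUNE2 on chromosome 9 were at -0.34 and -0.42.

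Steroid-converting enzymes as a list had 4 of 11 members higher (36.4%, beside 4.2% of all genes) and 0 lower (median 0.20). These were the 3 glucuronosyltransferases already counted above and HSD17B1, which reduces estrone to estradiol. HSD17B1 stood at 16.5 CPM in LNCaP-ENZ48 and 34.9 in RES-A (log2 ratio 1.08, 95% interval 0.97 to 1.18), under 2-fold with TMM factors (0.92).

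Luminal lineage factors, the transcription factors that set prostate identity, were present in both libraries at modestly different levels. Of 13 measured, 0 were higher and 1 was lower, and the median was -0.38. HOXB13, the posterior homeobox factor of the prostate, stood at 91.7 CPM in RES-A against 156 in LNCaP-ENZ48, with 92.1 in RES-B and 135 in untreated LNCaP (log2 ratio -0.77, 95% interval -0.81 to -0.72). FOXA1, a pioneer factor that opens chromatin, stood at 98.6 CPM in RES-A against 147 in LNCaP-ENZ48, with 124 in RES-B and 157 in untreated LNCaP (log2 ratio -0.58, 95% interval -0.63 to -0.53). GATA2, another pioneer factor, went from 153 to 89.3 CPM (log2 ratio -0.78). For HOXB13, FOXA1 and GATA2 the resistant libraries were below the parental ones but within 2-fold of acute treatment. EHF, an epithelial ETS factor, was the member past 2-fold, at 61.8 CPM in RES-A against 181 in LNCaP-ENZ48, with 118 in RES-B and 251 in untreated LNCaP (log2 ratio -1.55, 95% interval -1.6 to -1.49). Prostate surface antigens, among them the targets of antibody and radioligand drugs, had 3 of 8 members lower (37.5%, beside 3.37% of all genes) and 0 higher (median -0.10). FOLH1, which encodes prostate-specific membrane antigen, stood at 239 CPM in RES-A against 527 in LNCaP-ENZ48, with 180.2 in RES-B and 327 in untreated LNCaP (log2 ratio -1.14, 95% interval -1.17 to -1.11). STEAP2 and STEAP1, membrane proteins of the same family, had log2 ratios of -1.57 and -1.04. The acutely treated library was the highest of the 4 for FOLH1, STEAP2 and STEAP1, and both resistant libraries were below it.

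Luminal keratins and junction genes had 2 of 14 members lower and 0 higher (median -0.09). The lower members were the tight junction genes OCLN, at 20.6 CPM in RES-A against 71.9 in LNCaP-ENZ48, with 29.1 in RES-B and 31.0 in untreated LNCaP (log2 ratio -1.81, 95% interval -1.90 to -1.71), and TJP1, which went from 119.9 to 37.7 CPM (log2 ratio -1.67) on a stretch of chromosome 15 at -0.43. SPINT1, a protease inhibitor of epithelia, was at -0.90 (-1.06 with TMM factors). Of 17 basal cell genes 1, ITGA6, an integrin of the basal layer, passed 10 CPM, with a log2 ratio of -0.44.

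A set of genes went from a clear level in both parental libraries to next to nothing in RES-A. H2AFJ, which encodes the histone variant H2A.J (chr12:14774405-14778002), stood at 0 CPM in RES-A against 359 in LNCaP-ENZ48, with 0 in RES-B and 341 in untreated LNCaP. SLC22A3, an organic cation transporter, stood at 0 CPM in RES-A against 52.2 in LNCaP-ENZ48, with 0 in RES-B and 49.7 in untreated LNCaP. RES-A held 0 UMIs of either gene, which allows up to 0.0511 CPM (3 UMIs), so H2AFJ was at least 7022-fold lower and SLC22A3 at least 1022-fold lower than in acute treatment. ETV1, an ETS factor activated by rearrangement in LNCaP, stood at 0 CPM in RES-A against 42.0 in LNCaP-ENZ48, with 0 in RES-B and 84.9 in untreated LNCaP, so ETV1 was at least 821-fold lower. H2AFJ, SLC22A3 and ETV1 thus had 0 UMIs in both resistant libraries and a clear level in both parental ones. In all, 6 genes with at least 10 CPM in LNCaP-ENZ48 had 0 UMIs in RES-A, and the others, named after their values were seen, were DNAJC15, PTGFR and ZNF43, at 28.1, 20.6 and 12.1 CPM in LNCaP-ENZ48. The reverse case, 0 UMIs in LNCaP-ENZ48 and at least 10 CPM in RES-A, held for 2 genes, PREX1 (22.5 CPM) and PCDH19 (19.6 CPM), also named after their values were seen.

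GULP1, an adaptor for engulfment of dying cells, stood at 0.0341 CPM in RES-A against 179 in LNCaP-ENZ48, with 0.433 in RES-B and 143 in untreated LNCaP, with 2 UMIs in RES-A (log2 ratio -12.36, 95% interval -15.40 to -10.50). PEG3, a paternally expressed zinc finger gene (chr19:56810077-56840728), stood at 0.0170 CPM in RES-A against 110.0 in LNCaP-ENZ48, with 6.05 in RES-B and 314 in untreated LNCaP, with 1 UMI in RES-A (log2 ratio -12.65, 95% interval -17.96 to -10.18). Both genes were high in the parental libraries, and RES-B kept a low level of PEG3. ADGRG6, an adhesion G protein-coupled receptor, stood at 0.170 CPM in RES-A against 72.1 in LNCaP-ENZ48, with 0.156 in RES-B and 36.4 in untreated LNCaP (log2 ratio -8.72, 95% interval -9.78 to -7.84). ADGRG6 was thus at most 0.170 CPM in either resistant library. Other members of the same families were not lower to that degree: of 11 measured imprinted genes 0 were higher and 2 were lower, PEG3 and SNRPN (log2 ratio -1.47, chromosome 15 neighborhood at -0.43), and the median was -0.09. Among 13 listed histone genes that were measured 3 were lower: H2AFJ, and HIST1H1C (-1.48) and HIST1H2AC (-1.37), which belong to the HIST1 cluster and are not variants like H2AFJ. Of 8 ETS factors 3 (37.5%, beside 3.37% of all genes) were lower, ETV1, EHF and ELK4 (log2 ratio -1.02), and 0 were higher, with a list median of -0.32.

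The other genes among the 15 with the lowest ratios kept a measurable level in RES-A. COLCA1, a transcript of a colorectal cancer risk locus, stood at 1.99 CPM in RES-A against 63.4 in LNCaP-ENZ48, with 13.1 in RES-B and 50.1 in untreated LNCaP (log2 ratio -4.99, 95% interval -5.27 to -4.72). The long noncoding RNA SCHLAP1, known from aggressive prostate cancer, stood at 2.42 CPM in RES-A against 53.3 in LNCaP-ENZ48, with 10.9 in RES-B and 48.6 in untreated LNCaP (log2 ratio -4.46, 95% interval -4.71 to -4.22), and for both transcripts the resistant libraries were below the parental ones. TMEM205, a transmembrane protein of little-known function, stood at 18.6 CPM in RES-A against 253 in LNCaP-ENZ48, with 192 in RES-B and 194 in untreated LNCaP (log2 ratio -3.76, 95% interval -3.85 to -3.67). ABHD2, a lipase that androgen induces, stood at 17.8 CPM in RES-A against 163 in LNCaP-ENZ48, with 167 in RES-B and 237 in untreated LNCaP (log2 ratio -3.19, 95% interval -3.29 to -3.10). TMEM205 and ABHD2 were low in RES-A alone of the 4 libraries. NFIB, a nuclear factor that partners with FOXA1, stood at 5.47 CPM in RES-A against 54.4 in LNCaP-ENZ48, with 16.9 in RES-B and 62.8 in untreated LNCaP (log2 ratio -3.31, 95% interval -3.48 to -3.15). S100P, a calcium-binding protein, stood at 5.80 CPM in RES-A against 54.04 in LNCaP-ENZ48, with 2.36 in RES-B and 82.2 in untreated LNCaP (log2 ratio -3.22, 95% interval -3.39 to -3.06). For NFIB and S100P both resistant libraries were below both parental ones. ABHD2 and NFIB lay in neighborhoods at -0.61 and -0.48 relative to all genes, well short of their own ratios.

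Promoters of 3 genes that were lower and 2 that were higher in RES-A, picked as examples and not by rank, are shown for their content of CG dinucleotides, the sites of DNA methylation. Windows are as for KLK3, and capitals mark each CG.
H2AFJ (GRCh38.p14, chr12:14774155-14774454, plus strand): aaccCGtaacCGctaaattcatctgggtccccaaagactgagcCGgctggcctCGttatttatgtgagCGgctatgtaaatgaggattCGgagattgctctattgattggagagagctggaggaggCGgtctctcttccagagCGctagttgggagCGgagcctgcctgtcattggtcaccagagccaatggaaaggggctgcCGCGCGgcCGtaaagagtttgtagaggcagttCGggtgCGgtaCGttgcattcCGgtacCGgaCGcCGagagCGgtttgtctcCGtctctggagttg
GULP1 (GRCh38.p14, chr2:188291624-188291923, plus strand): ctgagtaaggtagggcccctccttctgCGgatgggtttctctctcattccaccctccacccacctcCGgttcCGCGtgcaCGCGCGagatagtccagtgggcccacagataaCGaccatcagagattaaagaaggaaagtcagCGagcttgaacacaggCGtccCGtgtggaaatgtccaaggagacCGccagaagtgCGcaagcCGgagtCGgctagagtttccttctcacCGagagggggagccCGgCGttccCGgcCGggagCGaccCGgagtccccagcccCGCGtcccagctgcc
ADGRG6 (GRCh38.p14, chr6:142301757-142302056, plus strand): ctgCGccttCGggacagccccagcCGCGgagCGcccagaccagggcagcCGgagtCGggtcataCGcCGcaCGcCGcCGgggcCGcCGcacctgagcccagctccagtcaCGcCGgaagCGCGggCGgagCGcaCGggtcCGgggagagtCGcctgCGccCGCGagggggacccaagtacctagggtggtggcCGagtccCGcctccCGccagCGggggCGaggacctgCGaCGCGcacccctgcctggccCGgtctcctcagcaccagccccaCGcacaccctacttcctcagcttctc
IGFBP5 (GRCh38.p14, chr2:216695500-216695799, minus strand): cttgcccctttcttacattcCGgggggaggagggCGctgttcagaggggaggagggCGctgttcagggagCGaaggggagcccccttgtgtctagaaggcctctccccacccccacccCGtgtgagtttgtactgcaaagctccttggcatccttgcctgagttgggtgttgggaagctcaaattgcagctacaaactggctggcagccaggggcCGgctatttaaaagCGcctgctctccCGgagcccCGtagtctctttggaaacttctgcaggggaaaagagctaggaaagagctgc
UGT2B11 (GRCh38.p14, chr4:69214699-69214998, minus strand): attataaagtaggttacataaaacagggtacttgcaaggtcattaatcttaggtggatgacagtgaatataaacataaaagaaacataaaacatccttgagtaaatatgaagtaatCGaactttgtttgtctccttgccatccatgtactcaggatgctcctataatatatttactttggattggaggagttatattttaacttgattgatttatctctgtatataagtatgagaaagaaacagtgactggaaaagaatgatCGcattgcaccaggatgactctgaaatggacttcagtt
RefSeq lists H2AFJ as H2AJ. The windows of H2AFJ, GULP1 and ADGRG6, which were near silent in RES-A, held 22, 24 and 36 CG, and those of IGFBP5 and UGT2B11, which were higher, held 9 and 2. Other named genes went the other way. KLK3 and S100P, lower in RES-A, held 2 and 5 CG, and TUBA1A and TMSB4X, higher in RES-A, held 16 and 27. No contrast between lower and higher genes is drawn from these examples. For counts over genes, the window with most CG was taken where a gene had several. Over the 6027 compared genes with a RefSeq window the median was 29 CG, and 97.2% held at least 10. Among all 35116 RefSeq promoters, of genes expressed here or not, 56.4% held at least 10. All 8 genes that were at least 32-fold higher in RES-A had a window, of which 3 (37.5%) held at least 10 CG, with a median of 7. These 8 genes reached 10 CPM through RES-A, so neither share is a matched background, and no difference in CG content is drawn. Of the 62 genes at least 4-fold higher, 52 had a window and 84.6% of those held at least 10 CG. For the 21 genes at least 32-fold lower, 16 had a window, which is under 80% of the set, so the same check is void for them. These are counts of letters in a reference, and methylation was not measured.

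The largest gains in RES-A were in genes that the parental libraries hardly expressed. IGFBP5, a secreted binding protein of insulin-like growth factors (chr2:216672105-216695549), stood at 300.1 CPM in RES-A against 0.103 in LNCaP-ENZ48, with 114 in RES-B and 0.0180 in untreated LNCaP (log2 ratio 11.51, 95% interval 10.47 to 12.83), where LNCaP-ENZ48 had 7 UMIs. NR2F1, the orphan nuclear receptor COUP-TF1, known from dormant tumor cells (chr5:93583222-93594611), stood at 57.6 CPM in RES-A against 0.0147 in LNCaP-ENZ48, with 7.56 in RES-B and 0.0359 in untreated LNCaP (log2 ratio 11.94, 95% interval 9.46 to 17.24), where LNCaP-ENZ48 had 1 UMI. Both were present in both resistant libraries, RES-A being the higher one. Another nuclear receptor, the thyroid hormone receptor THRB, was also higher, at 33.4 CPM in RES-A against 6.73 in LNCaP-ENZ48, with 4.54 in RES-B and 12.5 in untreated LNCaP (log2 ratio 2.31, 95% interval 2.16 to 2.46), and of the 11 nuclear receptors measured 2 were higher and 0 lower (median 0.25). In the insulin-like growth factor axis IGFBP5 was the 1 member of 5 past 2-fold, and IGFBP2 went from 149 to 249 CPM (log2 ratio 0.74). NR3C1, the glucocorticoid receptor, had 5 UMIs in RES-A and 3 in LNCaP-ENZ48 (log2 ratio 0.95, 95% interval -1.41 to 3.64).

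VIM, the intermediate filament of mesenchymal cells (chr10:17228241-17237593), stood at 211 CPM in RES-A against 2.22 in LNCaP-ENZ48, with 58.6 in RES-B and 1.98 in untreated LNCaP (log2 ratio 6.57, 95% interval 6.34 to 6.81). CCDC80, an extracellular matrix protein, stood at 59.3 CPM in RES-A against 0.572 in LNCaP-ENZ48, with 44.7 in RES-B and 0.736 in untreated LNCaP (log2 ratio 6.69, 95% interval 6.24 to 7.19). The tubulin TUBA1A (108 CPM in RES-A against 6.22 in LNCaP-ENZ48, with 55.3 in RES-B and 2.15 in untreated LNCaP; log2 ratio 4.12) and the actin-binding peptide TMSB4X (231 CPM in RES-A against 25.1 in LNCaP-ENZ48, with 139.6 in RES-B and 15.8 in untreated LNCaP; 3.2) were higher too. These cytoskeletal and matrix genes were high in both resistant libraries and low in both parental ones. The fibroblast markers summed to 4.84 CPM in RES-A and 5.50 in LNCaP-ENZ48, and of 30 mesenchymal genes 4 passed 10 CPM, with VIM higher and FN1, fibronectin, lower (23.8 to 8.93 CPM, log2 ratio -1.42). The actin regulators TPM1 and CALD1 differed less, at -0.49 and 0.16 (-0.02 for CALD1 with size factors).

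A further group was highest in RES-A, with RES-B below it to differing degrees. ASPH, an aspartyl hydroxylase of the endoplasmic reticulum, stood at 628 CPM in RES-A against 49.7 in LNCaP-ENZ48, with 24.5 in RES-B and 50.2 in untreated LNCaP (log2 ratio 3.66, 95% interval 3.61 to 3.71). GNAI1, an inhibitory G protein subunit, stood at 129 CPM in RES-A against 5.93 in LNCaP-ENZ48, with 4.82 in RES-B and 6.86 in untreated LNCaP (log2 ratio 4.45, 95% interval 4.30 to 4.6). ADD3, an adducin of the membrane skeleton, stood at 172 CPM in RES-A against 17.4 in LNCaP-ENZ48, with 9.17 in RES-B and 19.9 in untreated LNCaP (log2 ratio 3.30, 95% interval 3.22 to 3.39). For all of ASPH, GNAI1 and ADD3 RES-A was the highest library and RES-B lay below both parental ones. SEMA3C, a secreted semaphorin, stood at 54.1 CPM in RES-A against 5.47 in LNCaP-ENZ48, with 6.95 in RES-B and 6.61 in untreated LNCaP (log2 ratio 3.30, 95% interval 3.15 to 3.46). RDH10, a retinol dehydrogenase, stood at 90.4 CPM in RES-A against 12.6 in LNCaP-ENZ48, with 10.3 in RES-B and 6.19 in untreated LNCaP (log2 ratio 2.84, 95% interval 2.74 to 2.95). C2orf54, which is little studied, stood at 68.3 CPM in RES-A against 0.352 in LNCaP-ENZ48, with 1.44 in RES-B and 0.0359 in untreated LNCaP (log2 ratio 7.6, 95% interval 7.02 to 8.24). SEMA3C, RDH10 and C2orf54 were likewise highest in RES-A, by far. PAGE1, a cancer-testis antigen on chromosome X, stood at 360.3 CPM in RES-A against 11.6 in LNCaP-ENZ48, with 70.4 in RES-B and 12.7 in untreated LNCaP (log2 ratio 4.95, 95% interval 4.85 to 5.06). EPHX1, the microsomal epoxide hydrolase, stood at 460.0 CPM in RES-A against 79.3 in LNCaP-ENZ48, with 276 in RES-B and 65.6 in untreated LNCaP (log2 ratio 2.54, 95% interval 2.49 to 2.58). For PAGE1 and EPHX1, and for C2orf54 at its low level of 1.44 CPM, RES-B was also at least 2-fold above both parental libraries.

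Neuroendocrine genes, the vesicle, granule and neural genes that mark neuroendocrine prostate cancer (NEPC), were mostly below 10 CPM: of 40 listed, 14 had 0 UMIs in RES-A and 15 in LNCaP-ENZ48. Of the 40, 6 passed 10 CPM, with 0 higher and 1 lower, SYT4. CHGA, the classical granule protein, had 0 UMIs in all 4 libraries, SOX2, a neural stem cell factor, had 1 UMI in LNCaP-ENZ48 and 0 in RES-A, and SYP, synaptophysin, stood at 3.72 CPM in RES-A against 3.62 in LNCaP-ENZ48, with 3.40 in RES-B and 4.33 in untreated LNCaP (log2 ratio 0.04, 95% interval -0.23 to 0.31; -0.12 with TMM factors). These markers were thus at or near 0, or level, in RES-A and in acute treatment. DDC, the decarboxylase of monoamine synthesis, stood at 126 CPM in RES-A against 68.3 in LNCaP-ENZ48, with 17.8 in RES-B and 24.1 in untreated LNCaP (log2 ratio 0.88, 95% interval 0.83 to 0.94), so RES-A was the highest library and RES-B close to LNCaP. In the study's list of genes upregulated in NEPC, 10 of 43 passed 10 CPM, 1 was higher, DNMT1, and 0 were lower, with a median of 0.71 (0.68 in cells called G1). Next to DNMT1 were APLP1, an amyloid precursor-like protein (log2 ratio 0.93), STMN1, a microtubule regulator (from 156 to 280.3 CPM, 0.85), and DLL3, a Notch ligand and drug target (65.7 CPM in RES-A against 38.5 in LNCaP-ENZ48, with 41.9 in RES-B and 42.7 in untreated LNCaP; 0.77). In the study's list of genes downregulated in NEPC, 24 of 32 passed 10 CPM, 2 were higher and 5 lower (median -0.34), with KLK3, HOMER2, STEAP2 and STEAP1 among the lower ones. The study used both lists on these same libraries, so they are not independent evidence here.

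Targets of the glucocorticoid receptor, many of which androgen can also regulate, were listed with the receptor and its cochaperone FKBP4. Of 10 measured members 4 were lower in RES-A (beside 3.37% of all genes), 1 was higher and the others were within 2-fold, with a median of -0.72. The higher member was FKBP4, under 2-fold with TMM factors (0.89). It is listed as a cochaperone and not as a target, and is counted again among the heat shock chaperones below. The receptor gene itself, NR3C1, was hardly detected in either library, as given above, and receptor activity was not tested. CEBPD, a transcription factor of the acute phase and of growth arrest, stood at 1.13 CPM in RES-A against 21.4 in LNCaP-ENZ48, with 4.96 in RES-B and 29.7 in untreated LNCaP (log2 ratio -4.25, 95% interval -4.63 to -3.89). TSC22D3, the glucocorticoid-induced leucine zipper, stood at 11.5 CPM in RES-A against 68.6 in LNCaP-ENZ48, with 75.9 in RES-B and 66.8 in untreated LNCaP (log2 ratio -2.58, 95% interval -2.70 to -2.46). RES-A was the lowest library for both, and RES-B kept TSC22D3 near the LNCaP level. The other lower members were MT2A and MT1X, which are metallothioneins, cysteine-rich proteins that bind zinc and copper. MT2A stood at 296 CPM in RES-A against 1010.1 in LNCaP-ENZ48, with 1912 in RES-B and 1283 in untreated LNCaP (log2 ratio -1.77, 95% interval -1.79 to -1.74). MT1X stood at 71.9 CPM in RES-A against 273 in LNCaP-ENZ48, with 523 in RES-B and 397 in untreated LNCaP (log2 ratio -1.92). Among metallothioneins outside the receptor list, MT1G stood at 4.40 CPM in RES-A against 72.2 in LNCaP-ENZ48, with 0.364 in RES-B and 54.5 in untreated LNCaP (-4.04). MT1F stood at 6.22 CPM in RES-A against 17.5 in LNCaP-ENZ48, with 60.9 in RES-B and 12.98 in untreated LNCaP (-1.50). RES-A was below both parental libraries for all 4, while RES-B was above them for MT2A, MT1X and MT1F and below them for MT1G. Metallothionein genes are close copies of each other, so the split of reads between them is uncertain. With the zinc transporters added, 4 of 14 members were lower (28.6%, beside 3.37% of all genes) and 0 higher (median -0.41), and the 4 were these metallothioneins.

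**Figure D3:**
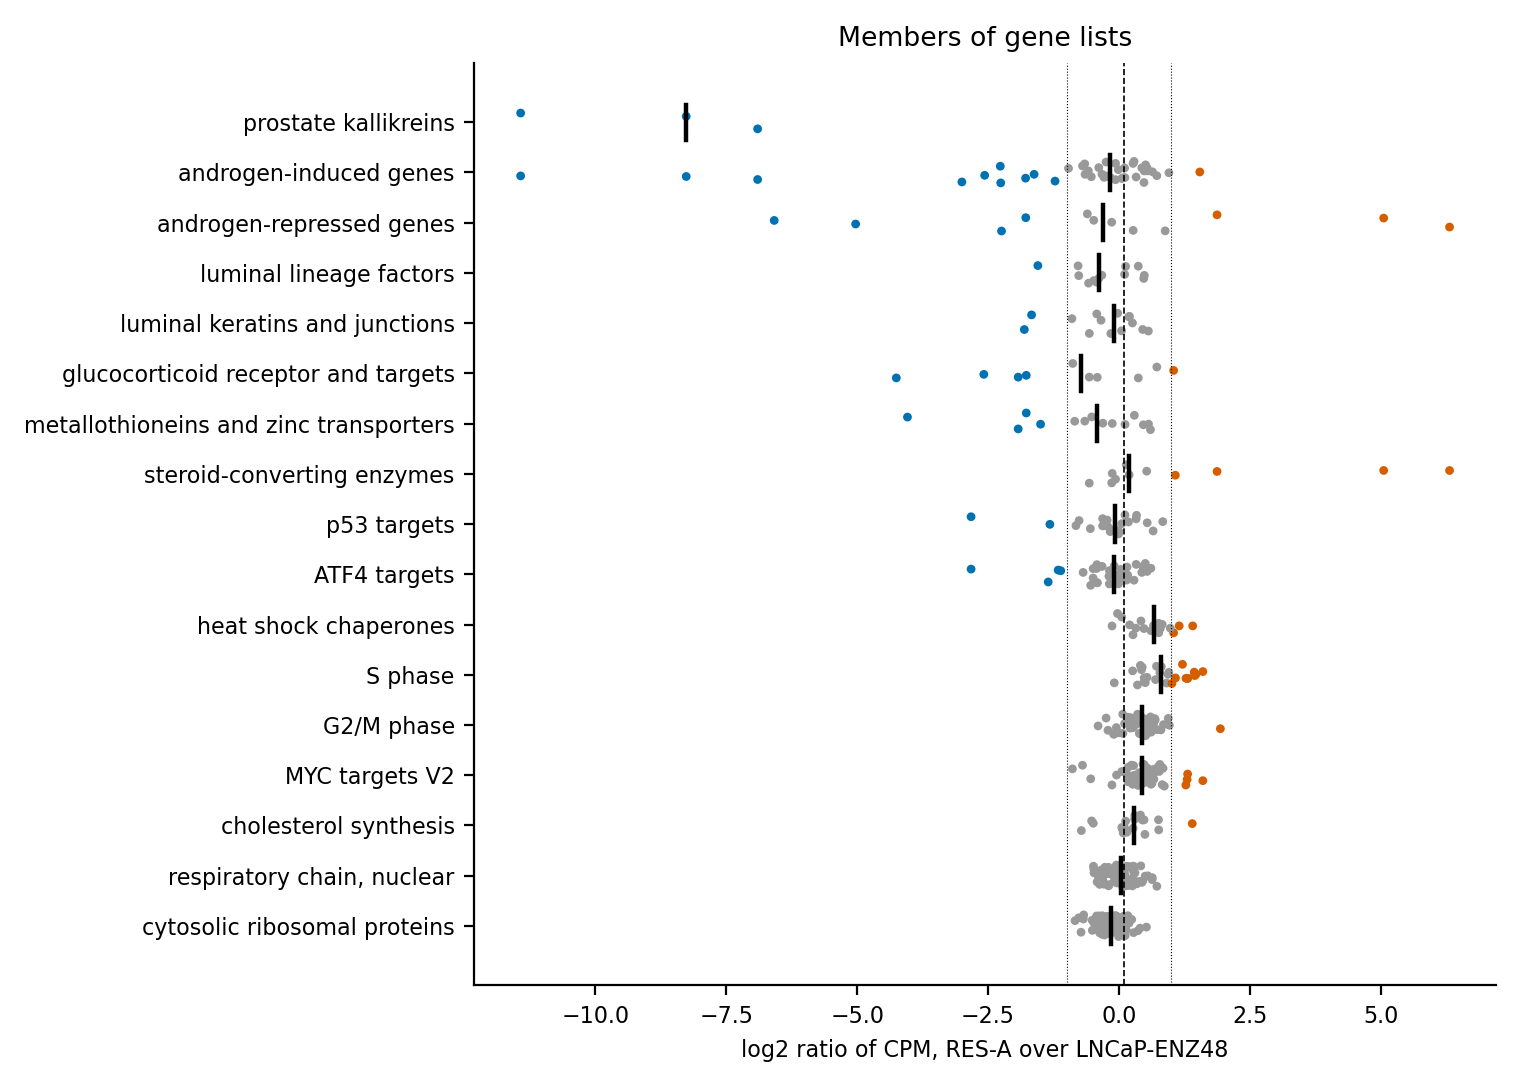
Log2 ratio of RES-A over LNCaP-ENZ48 for the members of gene lists that passed 10 CPM, 1 point per gene, with a bar at each list's median, a dashed line at the median of all genes, 0.11, and dotted lines at 2-fold (orange higher, blue lower). Kallikreins sit far to the left, glucocorticoid receptor targets and metallothioneins are shifted left, and S phase genes and heat shock chaperones are shifted right.

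Of the 27 S phase genes measured, 10 (37.0%, beside 4.2% of all genes) were higher in RES-A and 0 lower (median 0.81). Of 46 G2/M genes 1 (2.17%) was higher and 0 lower (median 0.44). MCM4, a subunit of the replicative helicase, stood at 29.9 CPM in RES-A against 9.84 in LNCaP-ENZ48, with 24.4 in RES-B and 15.7 in untreated LNCaP (log2 ratio 1.6, 95% interval 1.47 to 1.73). PCNA, the sliding clamp of DNA polymerase, stood at 123 CPM in RES-A against 44.4 in LNCaP-ENZ48, with 85.4 in RES-B and 50.8 in untreated LNCaP (log2 ratio 1.47, 95% interval 1.41 to 1.53), and CDK1, the mitotic kinase, at 222 CPM in RES-A against 58.0 in LNCaP-ENZ48, with 102 in RES-B and 76.9 in untreated LNCaP (log2 ratio 1.94, 95% interval 1.89 to 1.99). For MCM4, PCNA and CDK1, LNCaP-ENZ48 was the lowest of the 4 libraries, LNCaP lay above it, and RES-A was the highest. Cells were also called for phase from the same lists, each thinned to 5000 UMIs and scored together. RES-A had 24.1% of cells in S (95% interval 22.9 to 25.3) and LNCaP-ENZ48 12.7% (11.7 to 13.7), while G1 held 59.7% and 76.3%. G2/M held 16.2% in RES-A and 11.1% in LNCaP-ENZ48, but 17.1% and 17.2% when each library was scored alone, so no G2/M difference is drawn from the calls. Since the S share differed, the S phase list was also taken in cells called G1 alone, where its median was 0.33, and that of the G2/M list 0.28. Those cells were called G1 for low scores on these same lists, which by itself narrows a difference in them. The 2 medians therefore cannot show how much of the shift came from phase shares.

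MYBL2, a cell cycle transcription factor, was the 1 of 18 G1 regulators that was higher (from 10.4 to 26.4 CPM, log2 ratio 1.35), beside E2F1 (0.98) and the kinase CDK4 (0.84), and the pocket protein RBL2 had -0.96 (-1.12 with TMM factors). MYC stood at 139 CPM in RES-A against 115 in LNCaP-ENZ48, with 129 in RES-B and 185 in untreated LNCaP (log2 ratio 0.28, 95% interval 0.24 to 0.33), with LNCaP the highest library and RES-A between it and acute treatment. Among MYC target genes 10 of 194 (5.15%) were higher and 0 lower in the larger hallmark list (V1, median 0.23), and 4 of 53 (7.55%) and 0 in the smaller one (V2, median 0.45). The share of all genes that were higher was 4.2%, so V1 lay near it. The members past 2-fold overlapped the S phase list, with MCM4, MCM5 (log2 ratio 1.31) and PCNA among them, beside NOP56, a nucleolar protein of ribosome assembly (238 CPM in RES-A against 98.0 in LNCaP-ENZ48, with 168 in RES-B and 121 in untreated LNCaP; 1.28), and PUS1, a pseudouridine synthase (1.30). In the study's Persist list, cell cycle genes that it tied to a cluster of these cells, 0 of 17 passed 2-fold and the median was 0.40, with HMMR at 0.94 and PLK1 at 0.67. In its PROSGenesis list, from regenerating luminal cells, 2 of 46 were higher and 5 lower (median -0.05), led by CHPT1, a choline phosphotransferase (911 CPM in RES-A against 168 in LNCaP-ENZ48, with 434 in RES-B and 161 in untreated LNCaP; 2.44), and MME, neprilysin (63.2 CPM in RES-A against 253 in LNCaP-ENZ48, with 140.5 in RES-B and 142 in untreated LNCaP; -2.0). In its list for defective DNA repair (BRCAness), 3 of 10 passed 10 CPM, and BRCA1 (1.17) and CHEK1 (1.10) were past 2-fold, neither of them with size factors (1.0 and 0.93). Persist, PROSGenesis and BRCAness were used by the study on these libraries and are not independent evidence.

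DNA methylation and Polycomb enzymes went both ways, with 2 of 19 higher and 3 lower. DNMT1, the maintenance methyltransferase, stood at 98.3 CPM in RES-A against 44.1 in LNCaP-ENZ48, with 78.3 in RES-B and 54.2 in untreated LNCaP (log2 ratio 1.16, 95% interval 1.09 to 1.22; 0.98 with size factors), and EZH2, the Polycomb methyltransferase, at 36.0 CPM in RES-A against 21.6 in LNCaP-ENZ48, with 29.2 in RES-B and 26.1 in untreated LNCaP (log2 ratio 0.73, 95% interval 0.64 to 0.83). BMI1, a Polycomb subunit, was at 1.14 (0.98 with TMM factors), whereas KDM6A, a demethylase of the Polycomb mark, went from 102 to 39.0 CPM (-1.39) and JARID2, a Polycomb cofactor, from 23.7 to 10.2 CPM (-1.22). DNMT1 and EZH2 were thus lowest in LNCaP-ENZ48 and highest in RES-A, and KDM6A was highest in LNCaP-ENZ48 and lowest in RES-A.

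Heat shock chaperones fold client proteins including unliganded steroid receptors. Of 19 measured, 3 were higher (15.8%, beside 4.2% of all genes) and 0 lower, with a median of 0.66 (0.63 in cells called G1). HSP90AA1, the inducible HSP90, stood at 2727 CPM in RES-A against 1026 in LNCaP-ENZ48, with 2509 in RES-B and 931 in untreated LNCaP (log2 ratio 1.41, 95% interval 1.40 to 1.42). HSPA8, the constitutive HSP70, stood at 1405 CPM in RES-A against 632 in LNCaP-ENZ48, with 946 in RES-B and 606 in untreated LNCaP (log2 ratio 1.15, 95% interval 1.13 to 1.17; 0.99 with TMM factors), in a stretch of chromosome 11 at -0.39. FKBP4, a cochaperone of steroid receptors, stood at 237 CPM in RES-A against 115 in LNCaP-ENZ48, with 204 in RES-B and 109.9 in untreated LNCaP (log2 ratio 1.05, 95% interval 1.01 to 1.09; 0.89 with TMM factors). For HSP90AA1, HSPA8 and FKBP4 both resistant libraries were above both parental ones. The unfolded protein response of the endoplasmic reticulum had 0 of 22 members past 2-fold (median -0.09), with XBP1 at 0.80 and ERN1, its activator, at -0.85 (-1.01 with TMM factors). ATF4 targets, the amino acid stress response, had 4 of 37 members lower (10.8%, beside 3.37% of all genes) and 0 higher (median -0.09). GDF15, a stress-induced cytokine that ATF4 and p53 both drive, stood at 322 CPM in RES-A against 2280.4 in LNCaP-ENZ48, with 288 in RES-B and 3887 in untreated LNCaP (log2 ratio -2.82, 95% interval -2.84 to -2.80), and it was low in both resistant libraries. SLC7A11, the cystine importer, went from 97.2 to 45.0 CPM (log2 ratio -1.11), AARS, alanyl-tRNA synthetase, from 119.5 to 46.9 CPM (-1.35) and SLC1A5, a glutamine importer, from 38.4 to 17.2 CPM (-1.16). Among p53 targets 2 of 21 were lower and 0 higher (median -0.08), GDF15 and BBC3, a death inducer of the BCL2 family (-1.32).

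Among signaling genes, EGFR, the epidermal growth factor receptor, stood at 5.63 CPM in RES-A against 20.04 in LNCaP-ENZ48, with 15.5 in RES-B and 26.6 in untreated LNCaP (log2 ratio -1.83, 95% interval -2.01 to -1.66), and its partners ERBB2 and ERBB3 were at -0.15 and 0.58. EGFR was lowest in RES-A of the 4 libraries. NRP1, a receptor for semaphorins and vascular endothelial growth factor, stood at 5.85 CPM in RES-A against 50.3 in LNCaP-ENZ48, with 22.2 in RES-B and 39.7 in untreated LNCaP (log2 ratio -3.10, 95% interval -3.27 to -2.94), while its ligand SEMA3C was higher, as given above. In the Notch pathway the target HES1 stood at 29.5 CPM in RES-A against 7.09 in LNCaP-ENZ48, with 31.9 in RES-B and 8.10 in untreated LNCaP (log2 ratio 2.06, 95% interval 1.91 to 2.20) and HES4 at 51.3 CPM in RES-A against 128 in LNCaP-ENZ48, with 34.6 in RES-B and 150.0 in untreated LNCaP (log2 ratio -1.31, 95% interval -1.38 to -1.25), so these 2 targets had opposite signs in both resistant libraries. The BMP targets ID2 and ID3 stood at log2 ratios of 2.21 and 1.38, and BAMBI, a decoy receptor of the TGF-beta family, at 185 CPM in RES-A against 66.7 in LNCaP-ENZ48, with 278 in RES-B and 37.6 in untreated LNCaP (log2 ratio 1.47, 95% interval 1.42 to 1.52). Of 12 TGF-beta and BMP genes 3 were higher and 1 lower, and of 16 PI3K and AKT pathway genes 1 was higher, TSC2 (log2 ratio 1.06, 0.91 with TMM factors), and 1 lower, PIK3R1 (53.6 to 25.8 CPM, -1.06). PIK3R1, the regulatory subunit of PI3K, was 94.0 CPM in RES-B, above both parental libraries. Of the WNT pathway 6 of 41 genes passed 10 CPM and 0 were past 2-fold.

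The differences were then followed to the cells that carried them, with every cell thinned to 5000 UMIs. KLK3 was seen in 18.2% of LNCaP-ENZ48 cells and 0.0432% of RES-A cells, and in LNCaP-ENZ48 the 10% of cells with most KLK3 held 83.7% of its UMIs. SYT4 was as unevenly spread in LNCaP-ENZ48, where 13.8% of cells had a UMI and the top 10% held 92.8%, against 0.626% of cells in RES-A. H2AFJ and TMEM205, by contrast, were seen in 76.1% and 70.3% of LNCaP-ENZ48 cells, and in 0% and 8.19% of RES-A cells. The 0 cells with a UMI of H2AFJ, at this thinned depth, allow a share with a UMI of up to 0.0648% of the 4629 cells (3 cells), which is no limit on cells that express the gene. In the acute library the kallikrein and SYT4 were thus carried by a minority of cells, and H2AFJ and TMEM205 by most. Among gained genes, PAGE1 was seen in 83.6% of RES-A cells and 4.21% of LNCaP-ENZ48 cells, ASPH in 93.3% and 19.9%, VIM in 53.3% and 1.18% and IGFBP5 in 46.8% and 0.0219%. IGFBP5 was the most uneven of these 4 in RES-A, with 55.3% of its UMIs in the top 10% of cells, while ASPH had 23.3%. Neither library held a cell type that lacks these genes, so the share from free RNA could not be set beside them.

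**Figure D4:**
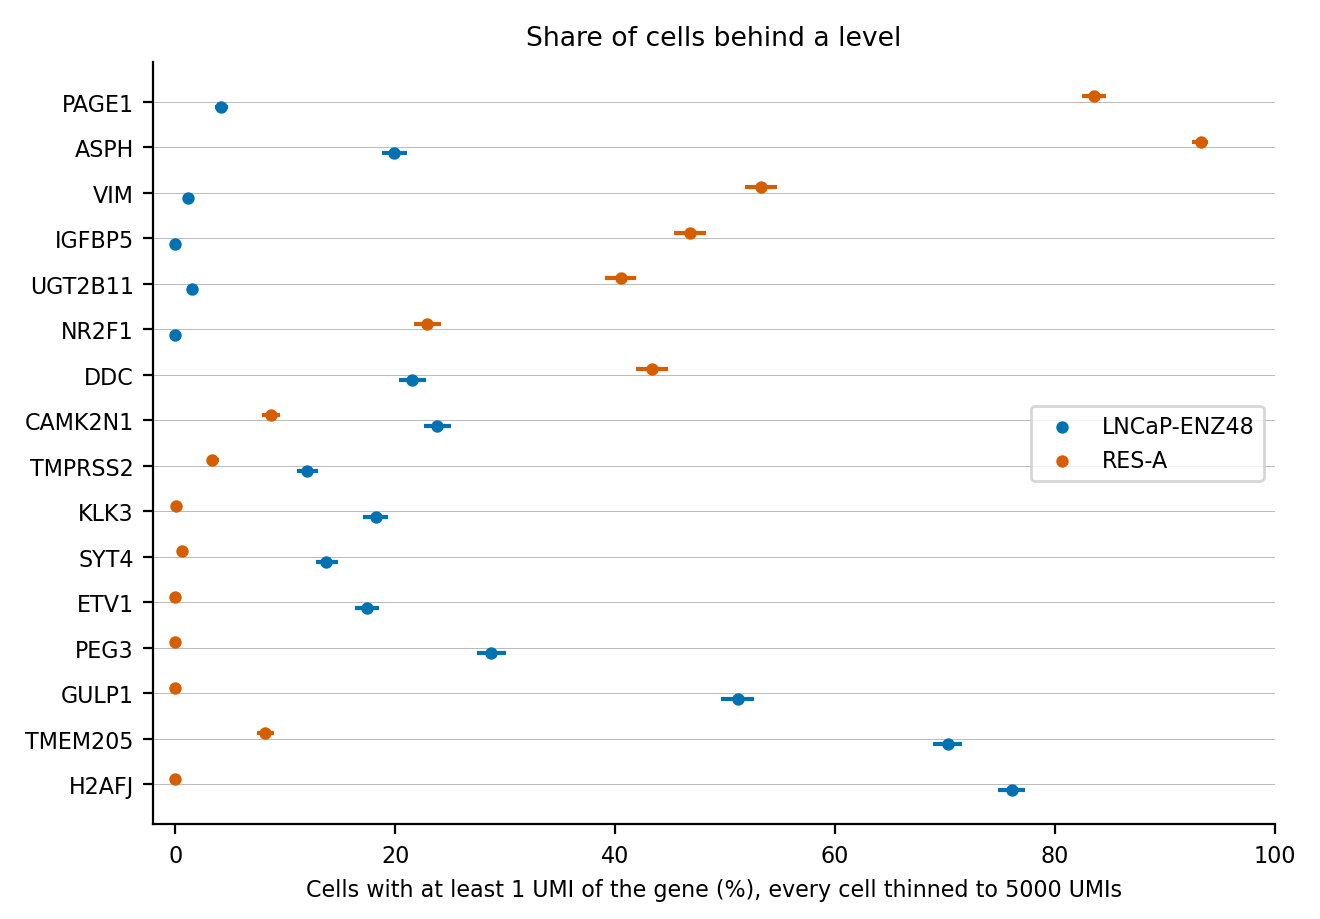
Share of cells with at least 1 UMI of each named gene, in percent, after thinning each cell to 5000 UMIs, for LNCaP-ENZ48 and RES-A, with exact binomial 95% intervals for counting error. H2AFJ and GULP1 are seen in 76.1% and 51.2% of LNCaP-ENZ48 cells and in almost none of RES-A, while ASPH and PAGE1 are seen in 93.3% and 83.6% of RES-A cells.

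RES-B against untreated LNCaP shares no library with RES-A against LNCaP-ENZ48, so it was used to see how many of the same genes lay past 2-fold in another resistant line, although that pair also differs in the presence of drug. Over the 7310 genes, 4.51% were at least 2-fold higher in RES-B than in LNCaP and 3.27% at least 2-fold lower. Of the 307 genes higher in RES-A, 134 (43.6%) were also higher in RES-B and 7 (2.28%) were lower. Of the 246 genes lower in RES-A, 100 (40.7%) were also lower in RES-B and 7 (2.85%) were higher. The shared gains included IGFBP5, with a log2 ratio of RES-B over LNCaP of 12.63, VIM (4.89) and HES1 (1.98), and the shared losses included KLK3 (-4.59), GDF15 (-3.75) and SAT1, a polyamine acetyltransferase (-2.10). Genes on the opposite side included CAMK2N1, lower in RES-A and at 3.40 in RES-B over LNCaP, and ASPH, higher in RES-A and at -1.03. With genes of at least 50 CPM, the shares on the same side were 45.7% of the higher and 30.6% of the lower genes.

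Ratios also differed between chromosomes. Relative to all protein-coding genes, the median log2 ratio was -0.49 on chromosome 15, where 192 of 216 genes compared lay below the overall median, -0.37 on chromosome 9 (227 of 272), -0.37 on chromosome 13 and -0.31 on chromosome 18. It was 0.51 on chromosome 21, 0.20 on chromosome 12 and 0.18 on chromosome 6. In RES-B over LNCaP the same medians were -0.39 for chromosome 15, 0.37 for chromosome 21 and 0.35 for chromosome 6, but -0.02, 0.12 and -0.07 for chromosomes 9, 13 and 18. Windows of 50 neighboring genes ran from -0.57 to -0.44 along chromosome 15, so the whole chromosome was shifted, and from -0.41 to 0.10 along chromosome 11, where part of it was. ABHD2, HOMER2, TJP1 and SNRPN lie on chromosome 15, and PRUNE2 and NFIB on chromosome 9, and each of these genes differed by more than its neighborhood. Ribosomal protein genes, of which 0 of 79 were past 2-fold (median -0.14), had low members on chromosome 11, RPS25, RPLP2 and RPS13 (-0.77, -0.72 and -0.68). DNA copy number was not measured in these libraries.

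**Figure D5:**
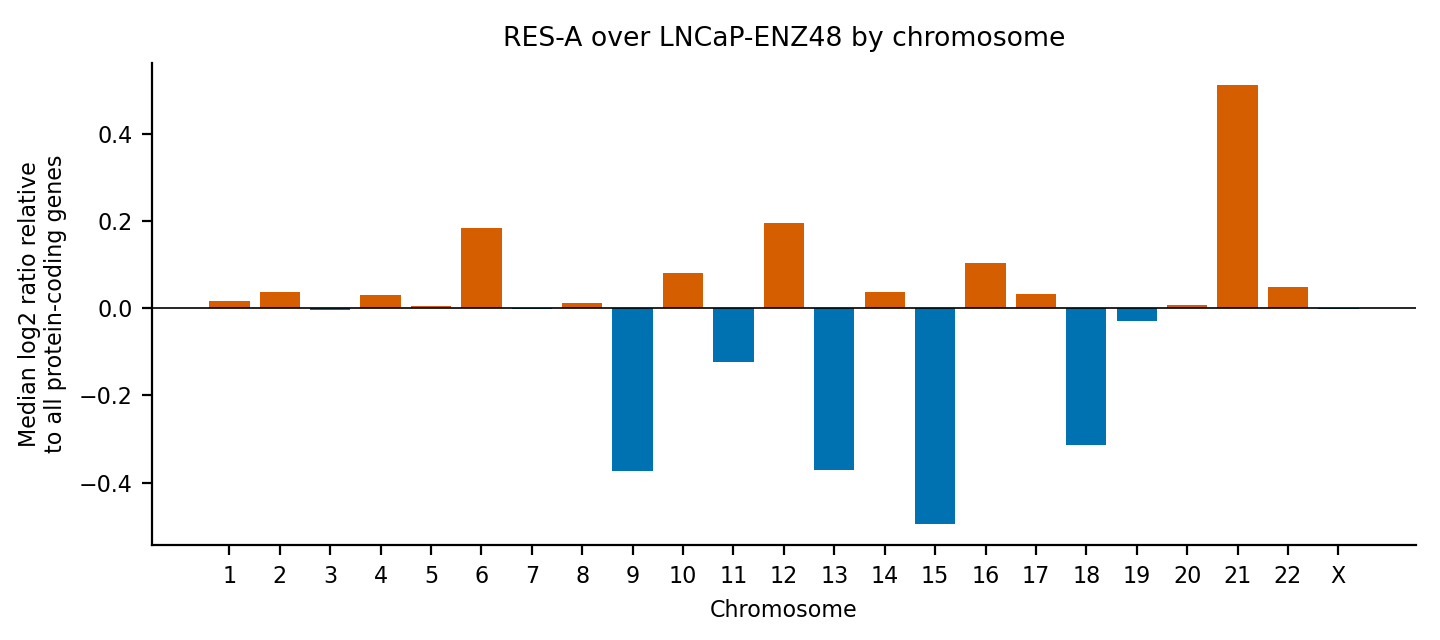
Median log2 ratio of RES-A over LNCaP-ENZ48 per chromosome, relative to all protein-coding genes compared. Chromosome 15 has the lowest bar (-0.49) and chromosome 21 the highest (0.51), and chromosomes 9, 13 and 18 are also low.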

How the data were processed

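Untreated LNCaP, LNCaP-ENZ48 and both resistant derivatives (1 library per group) were profiled by 10x Genomics 3′ scRNA-seq. The authors aligned reads and counted UMIs with Cell Ranger 3.0.2 on its prebuilt GRCh38 reference and deposited whole-number counts of UMIs per gene and barcode for 33538 genes, not normalized. Duplicate reads of 1 molecule had been collapsed by UMI, and reads matching several genes are not counted by that tool, which lowers close gene copies.

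Cells were filtered as given at the start of the report. The upper limits that the authors set per library were an alternative. UMIs were summed per gene and library and divided by the library total to give CPM, with exact Poisson 95% intervals. The ratio of 2 libraries had an exact conditional binomial (Clopper-Pearson) 95% interval. Intervals and the floor of 3 UMIs for a count of 0 cover counting error only. No test was run: 1 culture gave all cells of a library, so they do not replicate a condition, and the authors' cell-level test was left aside. Doublets were not removed in the main result. Scrublet marked 7 RES-A cells and 0 LNCaP-ENZ48 cells by its own threshold and so did not work, and leaving out the 191 and 176 cells of highest score was an alternative.

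The genes named were the 15 of highest and the 15 of lowest ratio, ranked by the interval bound nearest 0 among 2528 genes with at least 50 CPM in 1 library and the same direction under every cell filter; a fixed panel; up to 4 members of each gene list with the largest ratios; and short lists by range. The members, the panel and the 64 lists were chosen with earlier results of these data known. A few genes and 1 list are not reported here. Lists were written from textbook knowledge or taken from the gene names in the study's supplement. Coordinates came from GENCODE 44 by gene ID (33113 matched), and promoters from RefSeq on GRCh38.p14. Phases were called with the Seurat lists in scanpy 1.11.5. Alternatives used TMM factors (edgeR 4.0.16), size factors (DESeq2 1.42.0), other cell sets and other minimum levels. The arithmetic was tested on simulated data. Python 3.11.15, scipy 1.17.1 and R 4.3.3 were used.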

Additional observations from a re-analysis of the deposited data

Results flagged for a closer look

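Genes past 2-fold in opposite directions in the resistant lines, each against LNCaP-ENZ48, were ASPH, CAMK2N1 and MT1F. The log2 ratios of ASPH were 3.66 for RES-A and -1.02 for RES-B, CAMK2N1 had -2.24 and 1.64, and MT1F had -1.50 and 1.79. Each line was 1 library, both ratios share the LNCaP-ENZ48 library, and the difference between the lines was not tested.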

How the results depend on the processing

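Over 6 other sets of cells, 295 to 321 genes were at least 2-fold higher in RES-A and 236 to 254 lower. A lower minimum level, a mean of at least 1 CPM, gave 1083 higher and 704 lower of 12603 genes, and a minimum of 50 CPM gave 81 and 62 of 2314. With TMM factors the median log2 ratio of all genes was -0.05 and with size factors -0.07, against 0.11. Without mitochondrially encoded and ribosomal protein genes in the total, 283 were higher and 256 lower. Of 215 named genes, 8 were past 2-fold in the main result and not with TMM or size factors, 6 the reverse, and 3, SYP and CALD1 among them, turned sign, at values near 0. Of 56 list medians 15 turned sign under an alternative, and no direction is drawn for those. Of 1935 recomputed ratios of named genes, 1383 moved by less than their main interval and 552 by more, and 0 that were past 2-fold turned sign. With each library scored alone S held 18.9% of RES-A and 9.16% of LNCaP-ENZ48 cells and G1 64.0% and 73.6%; unthinned, S held 19.5% and 9.09%, G1 64.2% and 79.5% and G2/M 16.3% and 11.4%. With the minimum level set on LNCaP and RES-B, the shares also past 2-fold in RES-B over LNCaP were 47.4% of higher and 40.8% of lower genes. No paired analysis was possible because each group was 1 library, and for the same reason no replicate could be left out. Depth limits ratios of genes with a few UMIs, such as KLK3 in RES-A, and the spread between cultures is unknown.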

Other observations

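Redox and iron genes went different ways. HMOX1, heme oxygenase, stood at 9.001 CPM in RES-A against 47.3 in LNCaP-ENZ48, with 14.6 in RES-B and 100.2 in untreated LNCaP (log2 ratio -2.39, 95% interval -2.53 to -2.26), while GCLC, the catalytic subunit of glutathione synthesis, stood at 34.1 CPM in RES-A against 8.55 in LNCaP-ENZ48, with 15.7 in RES-B and 8.92 in untreated LNCaP (log2 ratio 1.99, 95% interval 1.86 to 2.13) and GPX4, the lipid peroxidase, went from 606 to 1152 CPM between LNCaP-ENZ48 and RES-A (log2 ratio 0.93). GSTA1, a glutathione S-transferase, stood at 154 CPM in RES-A against 26.3 in LNCaP-ENZ48, with 26.7 in RES-B and 16.4 in untreated LNCaP (log2 ratio 2.55, 95% interval 2.48 to 2.63), and of 10 glutathione S-transferases 1 was higher and 0 lower (median 0.27). SAT1, which acetylates polyamines for export, stood at 73.5 CPM in RES-A against 351 in LNCaP-ENZ48, with 83.9 in RES-B and 361 in untreated LNCaP (log2 ratio -2.26, 95% interval -2.30 to -2.21), and OAZ3, an antizyme, was at 1.24. In lipid synthesis ACAT2, an early enzyme of the cholesterol pathway, was the 1 of 20 cholesterol genes past 2-fold (26.1 to 68.9 CPM, 1.40), and ELOVL6, a fatty acid elongase, and DBI, an acyl-CoA binding protein, were at 1.35 and 1.22. Of the nuclear-encoded respiratory chain genes 0 of 77 were past 2-fold, and of the mitochondrially encoded ones 0 of 13 (median 0.19).

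Interferon-stimulated genes had 1 of 10 members higher and 2 lower. LGALS3BP, a secreted glycoprotein, stood at 43.5 CPM in RES-A against 6.62 in LNCaP-ENZ48, with 12.5 in RES-B and 3.97 in untreated LNCaP (log2 ratio 2.72, 95% interval 2.57 to 2.87), and the membrane proteins IFITM2 and IFITM3 were at -3.38 and -1.48, on a stretch of chromosome 11 at -0.33. MHC class I genes had 0 of 12 members past 2-fold. In the HOXB cluster PRAC1, a prostate and colon transcript next to HOXB13, stood at 394 CPM in RES-A against 1014 in LNCaP-ENZ48, with 0.0347 in RES-B and 776 in untreated LNCaP (log2 ratio -1.37, 95% interval -1.39 to -1.34), so it was near the floor in RES-B and not in RES-A. Of hypoxia genes 1 of 26 was higher, EGLN3 (10.9 to 25.2 CPM, 1.20), and 1 lower, NDRG1 (10.1 CPM in RES-A against 31.0 in LNCaP-ENZ48, with 49.2 in RES-B and 30.7 in untreated LNCaP; -1.62). Of tetraspanins 1 of 14 was higher, TSPAN6 (1.59), and 3 were lower, TSPAN13, TSPAN4 and TSPAN33 (-1.40, -1.05 and -1.0). Among ephrins and Eph receptors 0 of 6 were past 2-fold, with EFNB2 at -0.88 (-1.04 with TMM factors), and among BCL2 family genes BBC3 was the 1 of 13 that was lower. S100 proteins had S100P as the 1 lower member of 4. The HOXA and HOXD clusters had 0 members at 10 CPM, and the 2 HOXC genes that passed, HOXC9 and HOXC6, were at -0.26 and -0.06. Among 6 growth factors, cytokines and their receptors SEMA3C was higher and NRP1 lower, and among 9 MYC network factors 0 were past 2-fold, with MAX at 0.47.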
